A study of Rattus norvegicus with 18 samples.

Results

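RPE/choroid of 24-month-old rats that had received 8-aminoguanine (8-AG) was compared with RPE/choroid of young rats, over every gene of the count table. The comparison rests on 6 of the 18 RNA-seq libraries of the study, 3 from 8-AG-treated aged rats and 3 from young rats, and was tested for 16215 of 32552 genes. All rats were wild-type female Fischer344 rats. The young rats were 4 months old by the sample labels and untreated, and the treated rats drank water with 8-AG, at 5 mg/kg a day, over 8 weeks from 22 to 24 months of age. The treated and young groups therefore differ in both age and drug, and this comparison alone does not tell them apart. The 3 libraries of untreated 24-month-old rats are set beside them, as levels and, for some genes, as a test of 8-AG against untreated aged tissue. The tissue was taken by washing the eye cup with a lysis reagent after the cornea, iris, lens and neural retina had been removed. The sample is thus a mixture of cells. In such a bulk sample, fewer cells of a type and less RNA per cell cannot be told apart. Young libraries 1 and 2 carry one label number with the letters L and R, as do untreated aged libraries 1 and 2, and whether these are the eyes of a single rat is not stated. Where nothing says that libraries came from separate animals, p-values measure only the spread between these libraries, which may be technical.

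The retinal pigment epithelium (RPE) is a single layer of cells between the photoreceptors and the choroid. It recycles the chromophore of visual pigment through the visual cycle, takes up shed tips of rod outer segments, moves ions and fluid toward the blood, and closes the outer blood-retinal barrier with tight junctions. The choroid behind it is a vascular bed with fenestrated capillaries, collagen-rich stroma, melanocytes, macrophages, mast cells and nerves. 8-AG blocks purine nucleoside phosphorylase, the enzyme that breaks down inosine and guanosine to hypoxanthine and guanine.

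Depth was similar in both groups, with 28573828 to 48203050 counts in the young libraries and 35511335 to 46333033 in the 8-AG libraries. One library stood apart. The log2 levels of 8-AG library 1 correlated at 0.752 and 0.779 with those of 8-AG libraries 2 and 3, across genes, whereas all other pairs within a group were at 0.932 or above. The common dispersion, edgeR's measure of the spread between replicates, was 0.360 with all 6 libraries and 0.177 without 8-AG library 1. Lists and genes whose values turn on this library are therefore also described without it.

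The tissue label was first checked against marker genes in every library. Levels are in CPM, counts scaled to a common library total on a TMM-corrected scale that is the same for all 9 RPE/choroid libraries. The RPE was present in all of them. Best1, the RPE chloride channel gene, was at 563, 733 and 854 CPM in the young libraries and at 434, 786 and 838 CPM in the 8-AG libraries. Rgr, an opsin-like receptor of the visual cycle, was at 674, 482 and 128 CPM in young and at 936, 372 and 226 CPM in 8-AG. A list of 20 RPE channel, transporter and secreted protein genes, 19 of them found, summed to between 8862 and 9901 CPM in young. The sums were 7652, 9581 and 13433 CPM in 8-AG.

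Choroidal markers split the 8-AG group. Of 32 endothelial and angiogenic genes listed, 29 were found. Their summed level was 10257, 9309 and 12819 CPM in young, 11440 and 6851 CPM in 8-AG libraries 2 and 3, and 966 CPM in 8-AG library 1. Plvap, which encodes the diaphragm protein of fenestrated capillaries, was at 3009 to 3675 CPM in young, 3262 and 2091 CPM in 8-AG libraries 2 and 3, and 119 CPM in 8-AG library 1. The same library held 2423 CPM of collagen and matrix genes against at least 13519 CPM in every young library, 732 CPM of macrophage genes against at least 5250 CPM, and 43.9 CPM of T and NK cell genes against at least 295 CPM. Melanin genes behaved like the choroidal markers and unlike Rgr. Pmel, the fibril protein of melanosomes, was at 6576, 7597 and 9374 CPM in young, 8253 and 9440 CPM in 8-AG libraries 2 and 3, and 324 CPM in 8-AG library 1. Over the 49 gene lists examined, the summed level of 17 was below the lowest young value by more than 2 times in 8-AG library 1, and that of 1 list in each of 8-AG libraries 2 and 3.

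**Figure D1:**
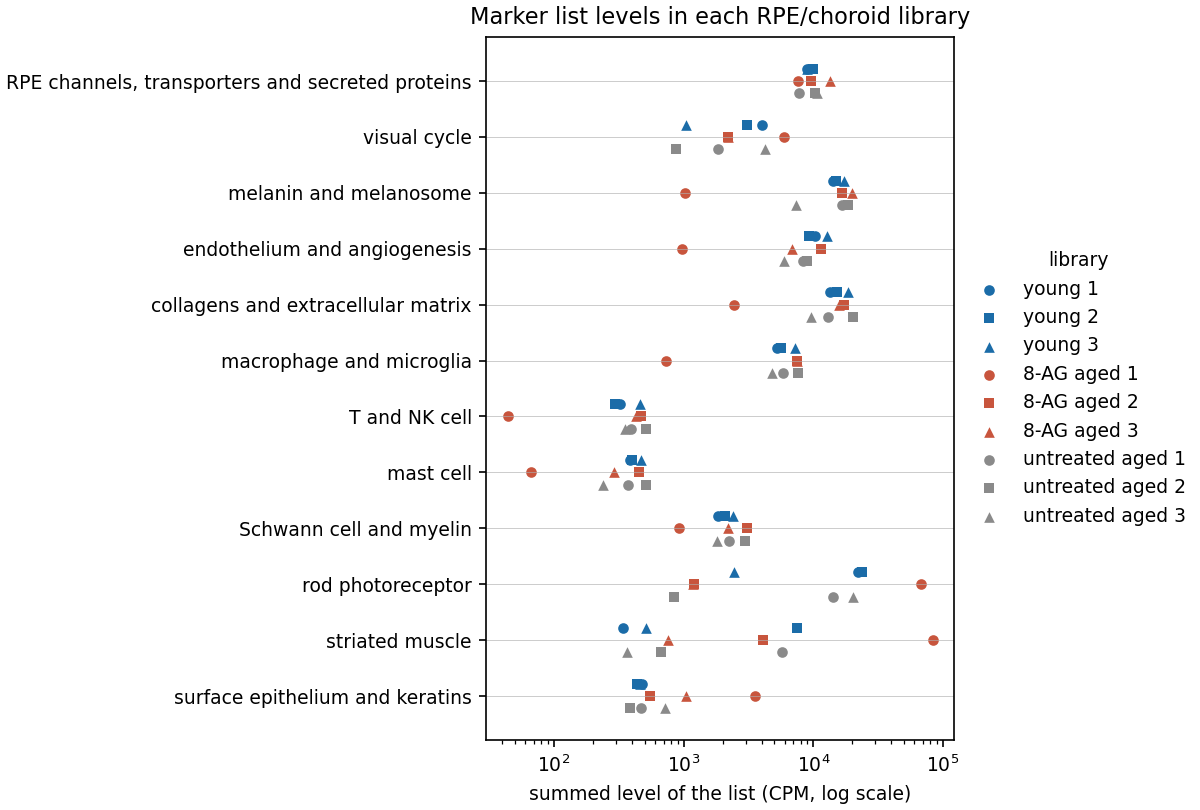
Summed level in CPM (log axis) of 12 marker lists in each of the 9 RPE/choroid libraries, coloured by group and shaped by library number. 8-AG library 1 lies below every other library for melanin, endothelial, collagen, macrophage, T cell and mast cell genes and above every other library for rod, striated muscle and surface epithelium genes, while the RPE channel list spans only 7652 to 13433 CPM.

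Markers of 3 other tissues varied widely between the 8-AG libraries, and those of muscle and rods also between the young libraries. Striated muscle genes summed to 83100 CPM in 8-AG library 1, 4078 CPM in library 2 and 751 CPM in library 3, against 339, 7480 and 508 CPM in young. Surface epithelium genes, mostly keratins and junction genes of conjunctiva and cornea, summed to 3553, 550 and 1044 CPM in the 8-AG libraries and 440 to 477 CPM in young. Rod photoreceptor genes summed to 67454 CPM in 8-AG library 1 but 1195 and 1188 CPM in libraries 2 and 3, and to 22024, 23877 and 2456 CPM in young. Muscle, epithelium and rods were thus all at their highest in 8-AG library 1. Their part in the differences given next was not tested beyond the values shown without that library and with the scores of these lists as covariates.

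The question of the comparison was which genes still differ from the young tissue after 8-AG in old age. A gene was called when its fold change was over 1.5 and its unadjusted P under 0.05 in edgeR's quasi-likelihood test, the study's rule. By this rule 277 genes were higher in 8-AG than in young RPE/choroid, 1.71% of those tested, and 45 were lower, 0.278%. No gene reached a Benjamini-Hochberg adjusted p under 0.05 (0%). At an unadjusted P under 0.05 there were 341 genes, 2.10% of those tested, which is a smaller share than the threshold itself allows. DESeq2's Wald test on the same counts gave 98 genes at an adjusted p under 0.05. The calls are therefore described as calls by the rule and not as changes that pass a correction for multiple testing.

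The 2 directions differed in how even they were. Of the 277 genes called higher, the highest 8-AG library was library 1 for 186, library 3 for 83 and library 2 for 8, and in 123 the highest 8-AG library exceeded the lowest by more than 10 times. Only 140 had every 8-AG library above every young library, a separation seen for 2.82% of all genes tested, and in 121 8-AG library 2 lay within or below the young range. All 45 genes called lower had every 8-AG library below every young library, a separation seen for 3.11% of all genes tested, and only 4 spanned more than 10 times among the 8-AG libraries. The median log2 fold change was 2.49 for the genes called higher and -1.34 for those called lower, against 0.02 for all genes tested.

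**Figure D2:**
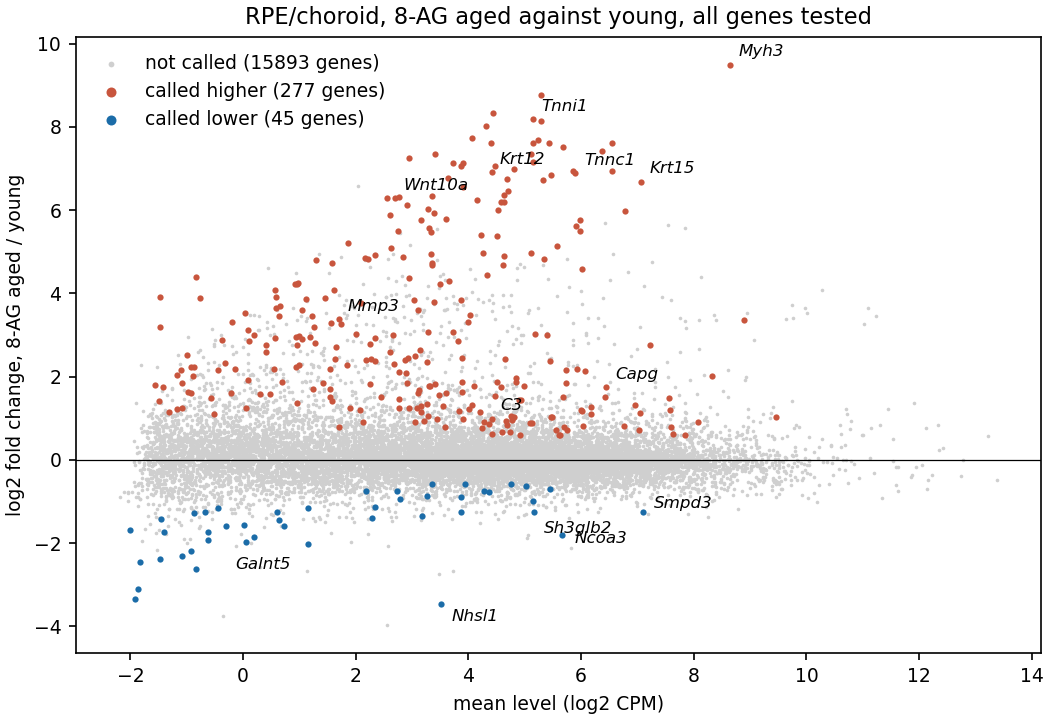
Log2 fold change of 8-AG aged against young RPE/choroid (vertical axis) against mean level in log2 CPM (horizontal axis) for the 16215 genes tested, with the 277 genes called higher in red and the 45 called lower in blue. The genes called higher extend to a log2 fold change of 9.49 (Myh3), whereas most genes called lower lie close to the grey cloud, with Nhsl1 at -3.46.

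Sh3glb2 (ENSRNOG00000017295), which encodes endophilin B2, a membrane-curving protein, was at 49.4, 48.6 and 54.3 CPM in young and at 21.4, 20.1 and 22.6 CPM in 8-AG. The groups were far apart and each was tight, also in 8-AG library 1. The log2 fold change was -1.25 (SE 0.15), with the smallest P of the named genes, and it was -1.25 without 8-AG library 1. Untreated aged RPE/choroid was at 20, 19.9 and 25.4 CPM, and 8-AG differed from it by a log2 value of -0.01 (SE 0.20). In the retina, where the count columns name the treated group only as the compound and were taken here as 8-AG, 8-AG-treated rats were also lower than young rats for this gene, with a log2 fold change of -0.87 (adjusted p = 2.4e-04 in edgeR's test).

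Nhsl1 (ENSRNOG00000060603), a relative of the Nance-Horan syndrome gene that acts on actin at the cell edge, was at 16.7, 22.7 and 24.1 CPM in young and at 0.622, 1.25 and 3.86 CPM in 8-AG. Its log2 fold change of -3.46 (SE 0.74) was the largest decrease among the named genes. Untreated aged libraries were as low, at 1.52, 1.97 and 1.42 CPM. Ncoa3 (ENSRNOG00000005616), a coactivator of nuclear receptors, was at 102, 53.5 and 83.3 CPM in young and at 15.1, 33.0 and 20.3 CPM in 8-AG, with 35.2, 32.9 and 18 CPM in untreated aged tissue. Galnt5 (ENSRNOG00000004645), which starts O-linked glycan chains, was at 2.07, 4.32 and 4.20 CPM in young and at 1.28, 0.667 and 0.655 CPM in 8-AG, and at 0.774, 0.589 and 0.203 CPM in untreated aged tissue. In all 4 of these genes the 3 untreated aged libraries lay below the young range as well. In the retina, unlike Sh3glb2, Nhsl1 was at 0.25 and Ncoa3 at -0.12 for 8-AG against young, and Galnt5 had no value. The differences between the tissues, -3.71 for Nhsl1 and -1.68 for Ncoa3, did not pass the correction (adjusted p = 0.71 and 0.75 in edgeR's interaction test).

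The other 9 genes named for a decrease had log2 fold changes from -1.34 for Ntrk3 to -0.74 for Mgat5. Ntrk3, the receptor of neurotrophin-3, was at 13.1 ± 2.90 CPM in young and 5.15 ± 2.60 CPM in 8-AG (SD, n = 3). Smpd3, the neutral sphingomyelinase 2 that releases ceramide at the plasma membrane, was at 228, 176 and 181 CPM in young and at 39.4, 139 and 65.2 CPM in 8-AG, with a log2 fold change of -1.26 (SE 0.49). Pcdh20, a protocadherin, went from 20.7 ± 4.94 to 8.68 ± 3.15 CPM, and Ndst4, which modifies heparan sulfate, from 3.06 ± 0.514 to 1.37 ± 0.259 CPM. Phex, an endopeptidase of phosphate balance, had a log2 fold change of -1.12 and lost its call without 8-AG library 1, at -0.91. Mfhas1 was at -0.89, Bmf, a pro-apoptotic BH3-only gene, at -0.87, and Mgat5, which branches N-linked glycans, at -0.74. For these genes the untreated aged libraries overlapped the young ones, and the log2 fold change of untreated aged against young lay between -0.79 for Phex and Ndst4 and -0.10 for Mgat5.

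Cxcl9 (ENSRNOG00000022242), a chemokine induced by interferon gamma that draws T cells, differed between the 2 aged groups. It was at 55.3, 46.5 and 40.5 CPM in young, 15, 27.3 and 29.4 CPM in 8-AG and 46.9, 42.9 and 41.4 CPM in untreated aged RPE/choroid. Every 8-AG library was below every library of either other group. The log2 fold change was -0.98 (SE 0.30) against young and -0.86 (SE 0.28) against untreated aged tissue, and neither passed the correction over all genes. T and NK cell genes were at their lowest in 8-AG library 1, and without that library the value against young was -0.73.

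Among the genes called higher, few were even across the 8-AG libraries. Capg (ENSRNOG00000013668), a protein that caps actin filaments and is abundant in macrophages, was at 32.8, 39.3 and 49.8 CPM in young and at 200, 89.2 and 117 CPM in 8-AG. The log2 fold change was 1.74 (SE 0.36), and 1.35 without 8-AG library 1, the library with the lowest macrophage genes. Untreated aged libraries were above the young range as well, at 58.7, 98.5 and 91.1 CPM, and overlapped the 8-AG libraries. Aldh3a1, an aldehyde dehydrogenase best known from corneal epithelium, was at 31.4, 38.8 and 44.7 CPM in young, 67.2, 55.1 and 76.2 CPM in 8-AG, and 50.6, 30.4 and 27.1 CPM in untreated aged tissue.

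**Figure D3:**
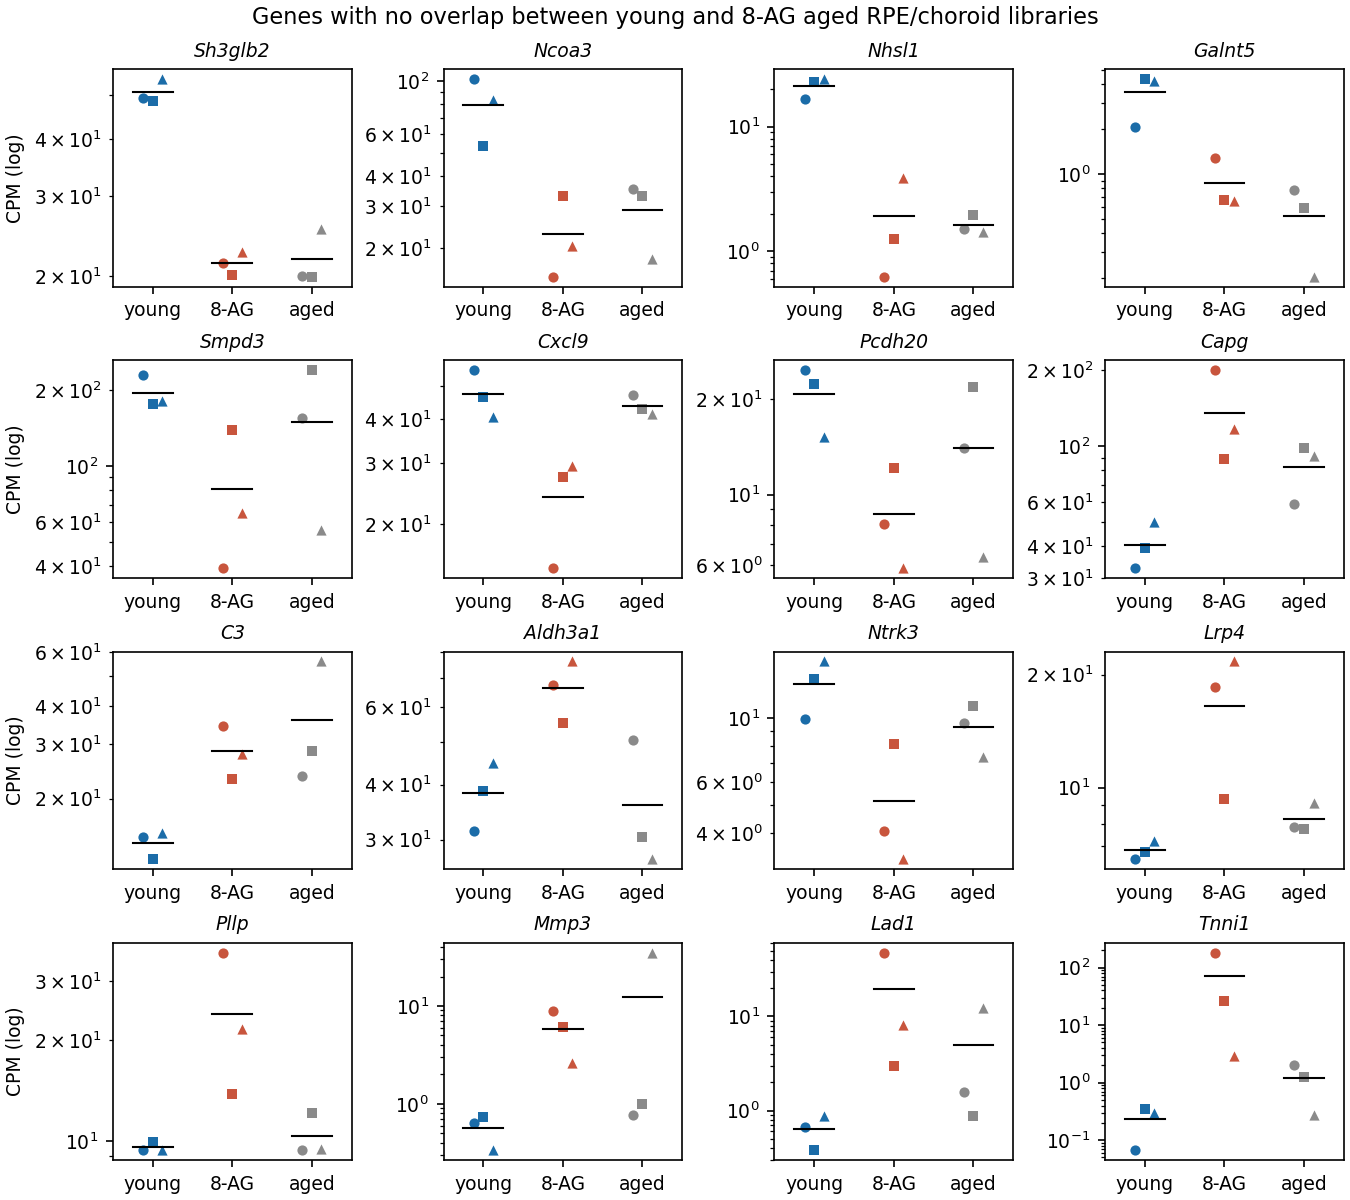
Level in CPM (log axes, which differ between panels) of 16 genes in the young (blue), 8-AG aged (red) and untreated aged (grey) RPE/choroid libraries, with the shape giving the library number and a bar at the mean. Sh3glb2 lies at 48.6 to 54.3 CPM in young and at 20.1 to 22.6 CPM in 8-AG with little spread, while Tnni1 spans 2.92 to 183 CPM among the 8-AG libraries.

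The complement cascade marks targets for uptake and lysis, and its components were measured in a list of 19 genes. Of the 15 found and tested, 2 were called higher and none lower, 13.3% against 1.71% of all genes, with a list median of -0.15. When 8-AG library 1 was left out, 3 were called higher, against 2.10% of all genes in that fit, and the median was 0.23. C3 (ENSRNOG00000046834), on which all complement pathways converge, was at 15, 12.7 and 15.4 CPM in young and at 34.5, 23.1 and 27.9 CPM in 8-AG. The lowest 8-AG library was well above the highest young one. The log2 fold change was 0.99 (SE 0.22) and 0.83 without 8-AG library 1. Untreated aged libraries were at 23.6, 28.5 and 55.9 CPM, and 8-AG differed from them by a log2 value of -0.31 (SE 0.39). C4b, of the classical and lectin pathways, was at 39.2, 38.6 and 43.4 CPM in young, 48.2, 75.0 and 149 CPM in 8-AG, and 85.7, 94.2 and 72.3 CPM in untreated aged tissue. C3 was also higher in the retina of 8-AG-treated than of young rats, with a log2 fold change of 2.25 (adjusted p = 4.0e-06 in edgeR's test). For C3 the difference between the tissues in this change was -1.30 (adjusted p = 0.27 in edgeR's test of the interaction).

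Matrix metalloproteinases cut extracellular matrix. Of 22 such proteases and inhibitors tested, 2 were called higher and none lower, 9.09% against 1.71% of all genes, and the list median was -0.16. The median was 0.18 without 8-AG library 1, with 2 genes called higher, against 2.10% of all genes in that fit. Mmp3 (ENSRNOG00000032626), stromelysin-1, was at 0.634, 0.728 and 0.335 CPM in young and at 8.93, 6.06 and 2.62 CPM in 8-AG. The log2 fold change was 3.38 (SE 0.62) and 2.94 without 8-AG library 1. Mmp10, stromelysin-2, was near the limit of detection at 0.0334, 0.0809 and 0.0209 CPM in young and at 1.84, 0.778 and 0.371 CPM in 8-AG, with a log2 fold change of 4.39, and of 3.60 without 8-AG library 1. Untreated aged libraries did not form a group for either gene. Mmp3 was at 0.774, 1.0 and 35.2 CPM there and Mmp10 at 0.0323, 0.383 and 6.85 CPM, with untreated aged library 3 the highest of all 9 libraries for both.

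The promoters of these 2 metalloproteinase genes are shown because the genes moved together in the same libraries. They are the 250 bases before the RefSeq start of each gene in build GRCr8, 5′ to 3′ on the strand of the gene. The interval is chr8:12925031-12925280 on the plus strand for Mmp3 and chr8:12974457-12974706 on the plus strand for Mmp10. Capitals mark TGANTCA, the core of AP-1 sites, which reads the same on both strands.
Mmp3: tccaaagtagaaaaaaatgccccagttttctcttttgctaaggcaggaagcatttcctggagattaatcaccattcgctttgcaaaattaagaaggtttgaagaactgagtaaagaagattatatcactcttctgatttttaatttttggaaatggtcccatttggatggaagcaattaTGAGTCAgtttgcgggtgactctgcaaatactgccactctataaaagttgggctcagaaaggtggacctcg
Mmp10: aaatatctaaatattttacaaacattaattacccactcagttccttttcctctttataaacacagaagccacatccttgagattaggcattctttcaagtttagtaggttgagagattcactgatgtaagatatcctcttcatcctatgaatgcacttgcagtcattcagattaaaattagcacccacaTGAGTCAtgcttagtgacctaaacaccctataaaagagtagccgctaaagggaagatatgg
Each holds 1 match, from 71 to 65 bases before the start in Mmp3 and from 61 to 55 in Mmp10. Of 33469 rat promoters of the same length, 6.34% hold the motif.

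Interferon-stimulated genes encode antiviral effectors and sensors. Of 45 tested from a list of 47, 8 were called higher and none lower, 17.8% against 1.71% of all genes, with a list median of 0.30. The 8 genes were Isg15, Isg20, Rsad2, Mx2, Oas1a, Oasl, Gbp4 and Zbp1. Isg15, a ubiquitin-like modifier, was at 34.4, 37.9 and 65.9 CPM in young and at 108, 58.1 and 132 CPM in 8-AG. Rsad2 (viperin) was at 10.5, 10.2 and 12.0 CPM in young and at 63.4, 10.6 and 36.0 CPM in 8-AG, and Oasl, an oligoadenylate synthetase-like protein, at 12.4, 11.9 and 19.2 CPM and at 90.4, 18.9 and 39.5 CPM. In each of these 3 genes 8-AG library 2 lay within the young range and libraries 1 and 3 above it. Without 8-AG library 1 only Oasl and Zbp1 of the list were called higher, at 1.02 and 0.84, when 2.10% of all genes were called higher. The list median was then 0.39, against 0.10 without 8-AG library 3 and 0.14 without young library 1. Untreated aged tissue stayed near young levels, with 49.1 to 59.2 CPM of Isg15 and 8.87 to 13.8 CPM of Rsad2. The 2 8-AG libraries high in these genes were also those with the highest surface epithelium genes. With the surface epithelium score as a covariate none of the 8 was called, the Rsad2 value was -0.06, and the other 7 stayed above 0.

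Interferon responses act through a promoter element, searched for here as a pair of GAAA with any 2 bases between them, or of TTTC on the other strand. Of the 8 interferon-stimulated genes called, 5 had an entry in the RefSeq promoter table, and 4 of these held the element in the 250 bases before the start, against 3.41% of all 33469 promoters. Their elements are printed in capitals with the bases around them, in GRCr8, because they show what these 4 of the 8 called genes have in common.
Isg20: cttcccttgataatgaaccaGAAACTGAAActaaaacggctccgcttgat
Gbp4: tcatctggcaagaagcagggTTTCGATTTC
Rsad2: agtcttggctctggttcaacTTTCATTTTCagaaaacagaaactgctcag
Oas1a: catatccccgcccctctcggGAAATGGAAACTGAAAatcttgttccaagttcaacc
The stretches are chr1:142239947-142239996 for Isg20, chr2:233978456-233978485 for Gbp4 and chr12:41330405-41330460 for Oas1a, all on the plus strand, and chr6:48788238-48788287 on the minus strand for Rsad2. The 2 matches in Oas1a overlap. The promoter of Oasl held no match, and Isg15, Mx2 and Zbp1 had no entry. The genes were picked for their values, so the share describes them and tests nothing.

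Surface epithelium genes made up the largest group of calls. Of 35 tested from a list of 49 keratins, desmosome and epithelial genes, 18 were called higher and none lower, 51.4% against 1.71% of all genes, with a list median of 4.23. Krt15, a keratin of basal epithelial cells, was at 5.77, 0.998 and 1.11 CPM in young and at 747, 6.97 and 44.6 CPM in 8-AG. Krt12, the keratin of corneal epithelium, followed another library, at 1.90, 0.444 and 125 CPM in 8-AG and at most 0.767 CPM in young. Conjunctival-type keratins thus peaked in 8-AG library 1 and Krt12 in library 3, and 8-AG library 2 stayed near the young level. Without 8-AG library 1 the list still had 12 genes called higher and a median of 1.74, when 2.10% of all genes were called higher. Lad1, an anchoring filament protein, was above the young range in every 8-AG library, at 47.8, 2.97 and 8.14 CPM in 8-AG, 0.667, 0.378 and 0.878 CPM in young, and 1.58, 0.884 and 12.4 CPM in untreated aged tissue. With 8-AG library 1 left out, the log2 fold change of Lad1 was 3.12 in place of 4.94, and that of Krt15 was 3.32 in place of 6.68, while that of Krt12 was 7.53 in place of 6.91. In the retina the 8-AG against young change of Lad1 was 3.85 (adjusted p = 9.0e-05 in edgeR's test). Krt15 and Krt12 were at 2.10 and 3.15 there (adjusted p = 0.13 and 0.11 in the same test).

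Several other genes named for large increases followed the same libraries. Tmem171, Pinlyp, Slc44a4, a choline transporter-like gene, and Adh7, an alcohol dehydrogenase that also oxidises retinol, were highest in 8-AG library 1, at 26.7, 48.1, 21.8 and 23.5 CPM, against 0.458 CPM or less in every young library. Their log2 fold changes were 6.30, 5.77, 4.82 and 4.86 with all libraries and 4.76, 2.82, 2.95 and 1.91 without 8-AG library 1, and each was called in both fits. Optc, which encodes the vitreous matrix protein opticin, Myo7b, a brush border myosin, and Wnt10a, a Wnt ligand, were highest in 8-AG library 3, at 131, 34.8 and 33.5 CPM. In 8-AG libraries 1 and 2 Optc was at 12.8 and 2.86 CPM, Myo7b at 0.591 and 0.778 CPM and Wnt10a at 3.76 and 0.889 CPM. In young libraries Optc was at 1.11 to 2.47 CPM, Myo7b at 0.270 to 0.418 CPM and Wnt10a at 0.0418 to 0.267 CPM. Their log2 fold changes were 4.89, 5.08 and 6.28, and only Wnt10a of them was called in every fit with a library left out.

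Striated muscle genes encode the contractile apparatus. Of 30 tested, 7 were called higher, 23.3% against 1.71% of all genes, and all 30 had a log2 fold change above 0, with a median of 3.59. Without 8-AG library 1 there were 3 calls of 30, when 2.10% of all genes were called higher, and the median was -0.09. Myh3, the embryonic myosin heavy chain, was at 2392, 23.6 and 0.349 CPM in 8-AG and at 0.20, 2.13 and 1.05 CPM in young. Its log2 fold change of 9.49 was 3.40 and no longer called without 8-AG library 1. Acta1, skeletal actin, was at 12632, 697 and 24.8 CPM in 8-AG but also at 1222 CPM in young library 2, and was not called. Tnni1 (ENSRNOG00000009073), slow skeletal troponin I, was at 0.0667, 0.351 and 0.293 CPM in young and at 183, 26.7 and 2.92 CPM in 8-AG, a log2 fold change of 8.19 (SE 1.87), and of 5.91 without 8-AG library 1. Tnnc1, slow troponin C, was at 0.801, 1.05 and 1.17 CPM in young and at 313, 36.9 and 5.87 CPM in 8-AG, a log2 fold change of 6.88, and of 4.40 without 8-AG library 1. Tnnt2, cardiac troponin T, reached 10.2 CPM in 8-AG library 1 against 0.230 CPM or less in young, and its log2 fold change of 4.8 was 3.49 without that library.

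Rod genes showed how far 1 library can set a comparison. With all 6 libraries none of 28 rod genes was called and the list median was 0.51. Without 8-AG library 1, 27 of the 28 were called lower and the median was -3.74, when 346 genes (2.10%) were called higher and 338 (2.05%) lower among all genes. The summed rod level given above was far from even within either group. The young group held 2 rod-rich libraries and 1 rod-poor library, and the 8-AG group 1 and 2. Untreated aged RPE/choroid was split in the same way, with 14270, 848 and 20196 CPM of rod genes. Rod RNA in this tissue therefore varied between libraries of every group by more than it differed between groups.

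Genes of RPE identity and function gave no call with all libraries. None of 17 RPE identity genes, none of 13 visual cycle genes, none of 13 melanin genes, none of 19 RPE channel and secreted protein genes and none of 14 phagocytosis genes was called with all 6 libraries, and their medians were 0.20, 0.27, -0.31, -0.02 and 0.03. In the fit without 8-AG library 1 the medians were -0.06, -0.36, 0.23, -0.05 and -0.05, so that all but that of the channel list changed sign. Ttr, transthyretin, which carries retinol and thyroxine, was at 1606, 1169 and 331 CPM in young and at 2580, 933 and 869 CPM in 8-AG, and Rlbp1, the retinaldehyde-binding protein, at 357, 309 and 45.5 CPM and at 691, 89.3 and 213 CPM. Both moved with Rgr among the young libraries, where library 3 was low. Visual cycle genes also summed to 3986, 3100 and 1043 CPM in young, in the same order of libraries as the rod genes apart from a swap of libraries 1 and 2. Kcnj13, the potassium channel of the RPE apical face, was steadier among the young libraries, at 421, 439 and 502 CPM. It was uneven in 8-AG, at 179, 532 and 627 CPM. The log2 fold change of Rpe65, the isomerase of the visual cycle, was 0.52 with an SE of 0.89, and its value was -0.59 without 8-AG library 1. Without 8-AG library 1, Tyr, tyrosinase, was called higher at 0.77, as were Efemp1 and the water channel gene Aqp1 at 2.37 and 1.13, and Tulp1 of the phagocytosis list was called lower at -3.36.

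Tight junction genes are of interest because the RPE seals the outer barrier. Of 17 tested, 2 claudins were called higher and none lower, 11.8% against 1.71% of all genes. The list median was 0.57, 0.48 without 8-AG library 1 and 0.14 without 8-AG library 3. In the fit without 8-AG library 1, Cldn19, Cgnl1 and Cldn4 were called higher, when 2.10% of all genes were. Cldn4 was at 94.1, 0.528 and 11.2 CPM in 8-AG and at 0.767, 0.108 and 0.523 CPM in young, in the order of the surface epithelium genes. Its log2 fold change of 6.25 was 3.67 without 8-AG library 1 and -0.15 with the surface epithelium score as a covariate. Cldn19, the main claudin of RPE junctions, was at 0.840, 2.36 and 38.2 CPM in 8-AG and at 0.467, 0.863 and 0.0836 CPM in young, so its call rested on 8-AG library 3. Cldn3, at 34.2, 0.222 and 1.75 CPM in 8-AG and at most 0.10 CPM in young, and Cldn7 did not pass the expression filter. None of these claudins was above 1.52 CPM in untreated aged tissue.

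Myelin and Schwann cell genes included 5 called higher and 1 called lower of 21 tested, 28.6% in both directions, against 1.71% of all genes called higher and 0.278% called lower. With 8-AG library 1 left out, 4 were called higher and 1 lower, when 2.10% of all genes were called higher and 2.05% lower. Pllp, the myelin protein plasmolipin, was at 9.41, 9.95 and 9.39 CPM in young and at 36.5, 13.8 and 21.6 CPM in 8-AG, with 9.42, 12.1 and 9.45 CPM in untreated aged tissue. Fa2h, which makes the hydroxylated lipids of myelin, was at 0.801, 0.405 and 0.774 CPM in young and at 4.01, 3.86 and 1.46 CPM in 8-AG. Mbp, myelin basic protein, was at 23.8, 28.6 and 13.4 CPM in young and at 26.8, 201 and 72.0 CPM in 8-AG. Sox10, which defines Schwann cells and melanocytes, was not called, at 113, 99.5 and 133 CPM in young and 11.1, 124 and 76.1 CPM in 8-AG. Pllp was highest in 8-AG library 1, where Sox10 was lowest, and Fa2h was about as high in 8-AG library 2, where Sox10 was highest among the 8-AG libraries. Cldn11, a claudin of myelin, was called lower, from 0.934, 1.27 and 1.23 CPM to 0.342, 0.361 and 0.437 CPM.

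Of the genes the study names as higher in aged RPE/choroid, a list chosen on libraries that include these young ones, 6 of 19 tested were called higher in 8-AG than in young tissue, 31.6% against 1.71% of all genes. None of 22 entries of its list of lower genes was called, against 0.278% of all genes, and all 22 had a log2 fold change below 0, with a median of -0.56, and of -0.23 without 8-AG library 1. With that library left out, 9 of the 19 were called higher, and Xiap and Adipoq of the 22 were called lower, at -0.86 and -2.81. Among all genes 2.10% were then called higher and 2.05% lower. These lists are not independent evidence of a direction. Besides C3, C4b, Mbp and Wnt10a, the 6 were Cdkn2b and Gfap. Gfap, the intermediate filament of reactive glia, was at 10.3, 9.93 and 3.83 CPM in young, 162, 12.3 and 21.3 CPM in 8-AG, and 56.7, 58.2 and 334 CPM in untreated aged tissue. Its log2 fold change of 3.03 was 1.08 and no longer called without 8-AG library 1. Cdkn2b, an inhibitor of cyclin-dependent kinases, was at 0.467, 0.243 and 0.230 CPM in young, 9.46, 0.806 and 1.0 CPM in 8-AG and 0.774, 0.766 and 2.03 CPM in untreated aged tissue, and its log2 fold change of 3.59 was 1.55 without that library. Postn, periostin of the matrix, overlapped between the groups, at 8.80 to 20.9 CPM in young and 57.8, 11.7 and 99.3 CPM in 8-AG.

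Immune cell, vascular and matrix lists gave few calls with all 6 libraries. None of 29 endothelial genes, 25 macrophage genes, 41 collagen and matrix genes, 12 MHC class II genes, 20 MHC class I presentation genes, 20 T and NK cell genes or 11 mast cell genes was called, and their medians lay between -0.69 for endothelial genes and -0.09 for T and NK cell genes. With 8-AG library 1 left out, the medians of endothelial and mast cell genes stayed below 0, at -0.17 and -1.0, and the others were above 0, at 0.20 for macrophage, 0.16 for collagen and matrix, 0.11 for MHC class II, 0.23 for MHC class I and 0.45 for T and NK cell genes. Among the 41 collagen and matrix genes, Col11a1, Thbs1, Col8a2, Fbln1 and Fmod were then called higher and Tnc lower, when 2.10% of all genes were called higher and 2.05% lower. In the same fit Cd247 of the T and NK cell list was called higher, and Fcer1a of the mast cell list was called lower. Cd163 and Mrc1, scavenger and mannose receptors of resident macrophages, were nevertheless below the young range in every 8-AG library. Cd163 was at 38.9, 46.5 and 42.9 CPM in young and at 5.51, 29.1 and 14.9 CPM in 8-AG, and Mrc1 at 77.2, 78.1 and 64.2 CPM and at 8.68, 57.5 and 37.7 CPM. Their log2 fold changes were -1.37 (SE 0.59) and -1.08 (SE 0.65) with all 6 libraries, and neither was called. Without 8-AG library 1 both were called lower, at -0.95 and -0.61, together with F13a1, while Fcgr3a and Cx3cr1 were called higher. Untreated aged libraries were at 29.5, 45.6 and 4.46 CPM for Cd163, so they overlapped both groups.

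**Figure D4:**
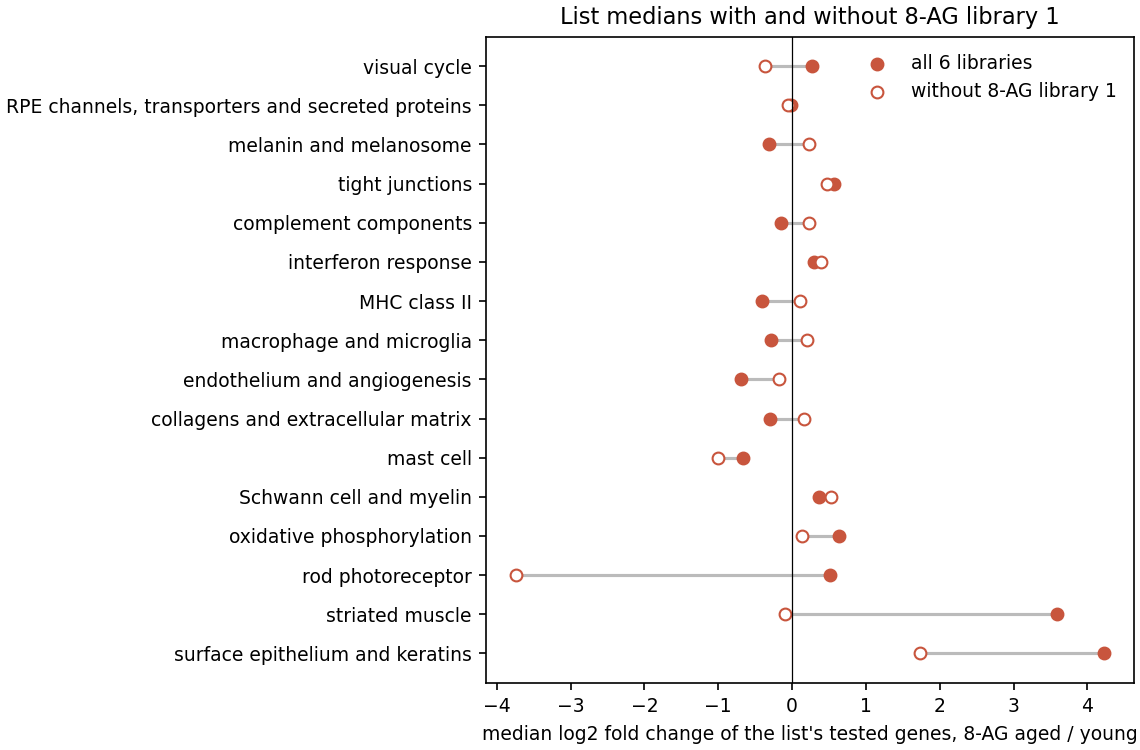
Median log2 fold change of the tested genes of 16 lists, 8-AG aged against young RPE/choroid, with all 6 libraries (filled) and without 8-AG library 1 (open). Removing that library moves the rod list from 0.51 to -3.74 and the striated muscle list from 3.59 to -0.09, and leaves the interferon list at 0.30 and 0.39.

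Genes of the pathway on which 8-AG acts gave no call with all libraries. None of 27 purine salvage and breakdown genes and none of 23 purinergic receptor and ectonucleotidase genes was called, with medians of 0.04 and -0.08, and of -0.09 and 0.10 without 8-AG library 1. In the fit without that library, Impdh1, an enzyme of guanine nucleotide synthesis, was called lower at -0.66, and the ectonucleotidase gene Entpd3 and Enpp2 were called higher at 0.69 and 2.59. Entpd3 was at 9.77, 11.5 and 11.5 CPM in young and at 12.7, 15.7 and 19.3 CPM in 8-AG, with no overlap. Housekeeping groups were steady as well, with no call among 79 cytosolic ribosomal protein entries (median 0.01, and 0.24 without 8-AG library 1) and 38 proteasome genes (median 0.04). Oxidative phosphorylation genes had a median of 0.63, with 79 of 81 entries above 0 and 1 called higher, 1.23% against 1.71% of all genes, and summed to 36521 CPM in 8-AG library 1 against 12708 to 15335 CPM in young. Without that library the median was 0.14. Single genes were called in the lists of antioxidant defence, 3.12% of 32 tested, and of heat shock and ER stress, 3.85% of 26, against 0.278% of all genes called lower and 1.71% called higher. Gclm, the modifier subunit of the enzyme that begins glutathione synthesis, was called lower, at 64.5, 52.2 and 47.3 CPM in young and 28.4, 45.1 and 27.2 CPM in 8-AG, whereas 24 of the 32 antioxidant genes were above 0, with a median of 0.21. Gclm was not called without 8-AG library 1, at -0.59, and Sod3 and Gpx3 of that list were then called higher, at 1.80 and 0.95. Hspb8, a small heat shock protein, was called higher, at 22.2, 31.1 and 27.8 CPM in young and 133, 37.3 and 58.5 CPM in 8-AG, with a log2 fold change of 1.5 and of 0.83 without 8-AG library 1.

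The 8-AG libraries were also compared with those of untreated aged rats, a comparison that shares the 8-AG libraries with the one above. No gene of 16257 reached an adjusted p under 0.05 in edgeR's test (0%), 274 had an unadjusted P under 0.05, and DESeq2 gave 81 genes at an adjusted p under 0.05. In the retina of the same study 2163 of 14542 genes (14.9%) reached an adjusted p under 0.05 for 8-AG aged against young, where the common dispersion was 0.0215. The difference between the tissues in the 8-AG against young change passed that threshold for no gene of 16849 in edgeR's interaction test (0%), with 872 at an unadjusted P under 0.05. The low count in RPE/choroid therefore does not show that the tissue responded less than the retina.

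The calls depended on single libraries. With 1 library left out at a time, 93 to 882 genes were called higher and 18 to 338 lower. Of the 277 genes called higher with all libraries, 146 were also called without 8-AG library 1, 259 without 8-AG library 2 and 140 without 8-AG library 3, and 53 to 57 without 1 young library. In all 6 of these fits 34 of the 16215 genes tested were called, 27 higher and 7 lower. The 7 were Sh3glb2, Nhsl1, Ncoa3, Galnt5, Cldn11, Gdf3 and Adamts13. Among the 27 were C3, Capg, Mmp3, Mmp10, Aldh3a1, Lad1, Pllp, Fa2h, Lrp4 and Lipg. The 27 also held the muscle genes Tnni1, Tnnc1 and Tnnt2. Tmem171, Upk1b, Cdcp1, Smim22 and Wnt10a, uneven across the 8-AG libraries, were among them too. Lrp4, a receptor that modulates Wnt signalling, was at 6.44, 6.74 and 7.21 CPM in young, 18.5, 9.33 and 21.7 CPM in 8-AG and 7.87, 7.75 and 9.08 CPM in untreated aged tissue.

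**Figure D5:**
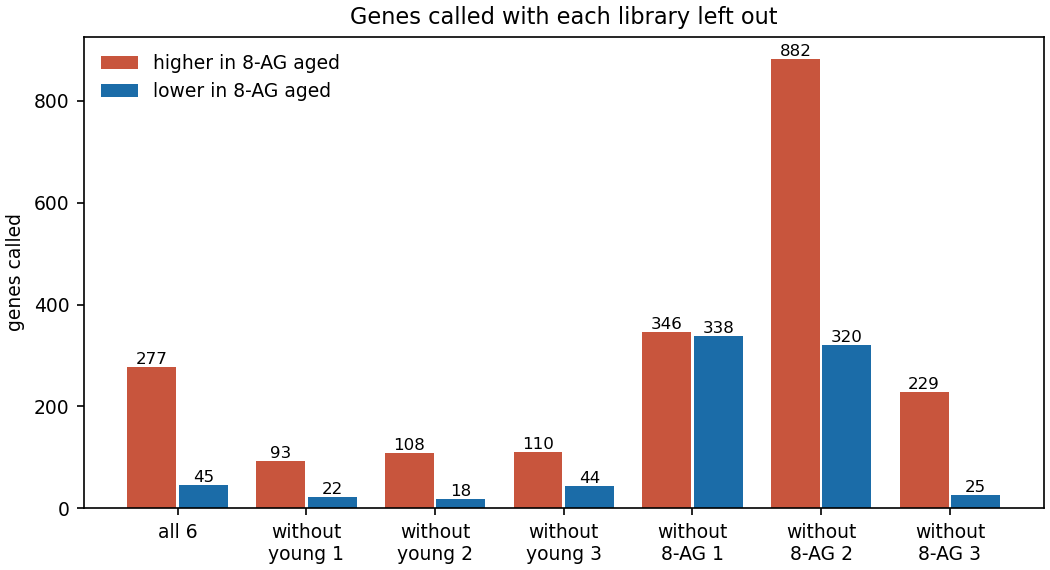
Number of genes called higher (red) and lower (blue) in 8-AG aged than in young RPE/choroid by fold change over 1.5 and unadjusted P under 0.05, with all 6 libraries and with each library left out. The count of higher genes ranges from 93 without young library 1 to 882 without 8-AG library 2, and the count of lower genes from 18 to 338.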

How the data were processed

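RNA-seq of RPE/choroid was analysed from 3 young and 3 8-AG-treated aged libraries, with 3 untreated aged libraries set beside them. Libraries were made from polyA-selected RNA. For RPE/choroid the authors deposited raw counts of reads for each gene, with no normalization. The retina values are expected counts that the authors deposited, estimated by RSEM, and were rounded here. Their columns are named Young and Compound, so the 8-AG retina group was inferred from the column names and the study's only compound. The submitters' processing notes name Rnor_6.0, Bowtie2 2.1.0, RSEM 1.2.15 and edgeR. Which of these made the RPE/choroid counts, and whether counting used strand, is not given in the sources used here, so reads of overlapping and near-identical genes may be shared. Columns of the authors' own comparisons (fold changes and p-values) were not used, apart from their gene symbols, which named 16680 of 32552 genes.

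The 6 libraries of a comparison were fitted alone in edgeR 4.0.16 under R 4.3.3, using filterByExpr, TMM, estimateDisp, glmQLFit with robust=TRUE, glmQLFTest. Genes were called by the study's rule, fold change over 1.5 with unadjusted P under 0.05, and adjusted p-values are Benjamini-Hochberg over all genes tested. SE is the absolute log2 fold change divided by the square root of F. The tissue interaction used 12 libraries. An exact permutation test of 3 against 3 libraries cannot go below 0.1. The fits were tested on simulated data. Total counts per library limit the precision of low genes.

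Named genes were called, had a mean log2 CPM of at least 1, did not overlap between groups and had a gene symbol. They are the 12 largest changes and the 8 smallest P in each direction, with called members of the lists, genes the study names, and markers. The 34 genes called in every fit with a library left out, members called without 8-AG library 1, and the genes with promoters shown were chosen after their values were seen. Members and lists were chosen with earlier results of these data known. Promoters are from RefSeq (GRCr8). Alternatives were RLE size factors, DESeq2 1.42.0, other filters, robust=FALSE, all 9 libraries in one fit, a replicate block, young libraries 1 and 2 summed, marker scores as covariates, and each library left out. Tables and figures used Python 3.11.15, pandas 2.3.3 and matplotlib 3.10.9. Some genes that the naming rule covers are not reported here.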

Additional observations from a re-analysis of the deposited data

Results flagged for a closer look

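Values of 4 genes were marked because every 8-AG library lay beyond the young libraries in one direction in RPE/choroid and in the other direction in retina. Their difference between the tissues in the log2 fold change of 8-AG aged against young, RPE/choroid minus retina, was -1.46 for Smpd3, 4.16 for Lipg, -2.93 for Mrc1 and -1.39 for Bub1. In edgeR's interaction test the unadjusted P was 0.025, 6.7e-04, 0.018 and 0.032, and the adjusted p was 0.96, 0.58, 0.96 and 0.96, so none passed the correction. Lipg, endothelial lipase, was at 0.888 to 1.29 CPM in young retina and at 0.304 to 0.653 CPM in 8-AG retina. In RPE/choroid alone, every 8-AG library lay above every young library for 2.82% of the 16215 genes tested and below for 3.11%. The share of all genes with opposite directions in the tissues is not given here. The 4 marked genes therefore do not show how common the pattern is. Groups of 3 libraries are too small for a test of single outlying libraries.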

How the results depend on the processing

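No gene reached an adjusted p under 0.05 for 8-AG aged against young RPE/choroid under any edgeR alternative, whereas DESeq2 gave 98, and 748 higher and 107 lower genes by the rule. For 8-AG against untreated aged tissue DESeq2 gave 81 and every edgeR alternative 0, and for the difference between tissues every alternative gave 0. The number of genes called higher was 505 without a filter (92 lower), 460 with all 9 libraries in one fit, 87 with young libraries 1 and 2 summed (25 lower), 1062 with the rod score as a covariate (1736 lower) and 86 with the surface epithelium score (368 lower), and 73 genes were lower with the striated muscle score. The cause of these shifts was not tested, apart from the larger number of genes tested without a filter and the smaller number of libraries in the summed fit. With 1 library left out, 93 to 882 genes were higher and 18 to 338 lower. The higher count was 93, 108 and 110 without young library 1, 2 or 3 and 882 without 8-AG library 2, and the lower count was 22 and 18 without young library 1 or 2 and 338, 320 and 25 without 8-AG library 1, 2 or 3. Each such fit leaves 2 libraries in a group.

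With a replicate block 96 genes were called higher and 41 lower. Libraries of the same number shared deviations from their group means at correlations of 0.42, -0.39 and 0.46, and young libraries 2 and 3 correlated best with 8-AG libraries 1 and 2, so the numbers do not pair the libraries.

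For 92 called genes of the lists and of the naming rule, 1531 values were recomputed under the alternatives, of which 1099 passed the rule in the same direction, 419 kept the direction only and 13 changed sign. With the surface epithelium score the log2 values were -0.15 for Cldn4, -0.06 for Rsad2, -0.51 for Myh8, -0.14 for Perp, -0.55 for Sfn, -0.48 for Krt80, -0.49 for Krt7, -2.89 for Krt5, -0.67 for Krt4, -0.45 for Elf3 and -0.69 for Krt13, all genes of that list apart from Cldn4, Rsad2 and Myh8. Myh8 was at -0.24 with the striated muscle score, and at -0.17 to 8.26 with 1 library left out, the lowest without 8-AG library 1. Depth limits genes under about 1 CPM, such as Mmp10.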

Other observations

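Single genes, picked after their values were seen, were far higher in 8-AG library 3 than in the young and the other 8-AG libraries, while the collagen and matrix list as a whole was within the young range there, at 15794 CPM. Fbln1, a fibulin of basement membranes, was at 669 CPM there and at 18.9 to 31.0 CPM in the 3 young libraries and the other 8-AG libraries. Enpp2, autotaxin, was at 1280 CPM against 49.0 to 126 CPM. Myh11, smooth muscle myosin, was at 817 CPM against 15.2 to 175 CPM, and Sod3, the extracellular superoxide dismutase, at 2195 CPM against 148 to 555 CPM. None of these genes was called with all 6 libraries. A list of ciliary body and iris epithelium genes summed to 2585 CPM in 8-AG library 3 against 434 to 532 CPM in the young and the other 8-AG libraries.

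Between 8-AG libraries 2 and 3, which were alike in rods, some genes, also picked after their values were seen, stood together apart from young. Cxcl13, a chemokine that draws B cells, was at 125 and 128 CPM against 31.8 to 65.9 CPM in young, Thbs1, thrombospondin-1, at 124 and 116 CPM against 47.3 to 75.0 CPM, and Fcgr3a, an Fc receptor of macrophages, at 81.0 and 77.6 CPM against 28.5 to 45.9 CPM. In 8-AG library 1 these genes were at 27.9, 23.9 and 8.65 CPM, on the opposite side of the young range in each case. Untreated aged libraries were at 47.0, 57.4 and 96.2 CPM for Cxcl13 and at 19.7, 135 and 97.3 CPM for Thbs1. For Fcgr3a they were at 64.8, 49.7 and 49.7 CPM, all above the young range.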
